A study of Mus musculus with 9 samples.

Results

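Passage through a cell sorter was compared with trypsin digestion alone in mouse mammary epithelial cell preparations. The comparison set 3 mock sorted arrays against 3 trypsinized arrays, 6 of the 9 arrays of the series, chosen by the sample titles alone and numbered 1 to 3 within each group. All cells came from wild-type C3H females aged 8 to 9 weeks and were freed from mammary fat with collagenase, which every group shares. Trypsinized cells had then been digested with trypsin. Mock sorted cells had been digested with trypsin and put through a mock FACS sort, a pass through a fluorescence-activated sorter that the labels describe no further. The 3 remaining arrays held untrypsinized cells, which had met collagenase only. The labels call the 3 samples of a group biological replicates but do not name animals or pools, so a p-value here measures only how these samples scatter, which may be technical in part. The comparison asks which transcripts differ after the pass through the sorter.

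Mammary epithelium is a bilayer of luminal cells, some of which sense hormones and some of which prepare to make milk, around which contractile basal myoepithelial cells lie. It sits in a fat pad with capillaries, venules, lymphatics, nerves, fibroblasts and immune cells, and an enzymatic preparation carries part of all of these along. Endothelial cells line the vessels and are held together by junction proteins, pericytes wrap the capillaries, and both can be recognised by transcripts that epithelial cells hardly use. Isolation also induces immediate early genes such as Fos and Egr1, heat shock chaperones and inflammatory cytokines, which is why a sorter is often asked about as a source of stress.

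RNA was measured on whole-transcript arrays, and a level below is log2(intensity + 1), while a change is the mean log2 level of mock sorted minus that of trypsinized arrays, with its standard error (SE), n = 3 arrays per group, and its adjusted p from limma over 19938 genes. A gene was called lower or higher at an adjusted p of at most 0.05 and a fold of at least 1.5. Median intensity was 389.2 to 408.2 on the trypsinized arrays and 400.3 to 402.9 on the mock sorted arrays, and precision is limited by having 3 arrays per group. Genes whose mean was below 8.2 log2 in both groups, the level under which 95% of 1027 olfactory receptor genes lie, are given no fold. Replicate 1 stood apart in both groups, with high lymphocyte transcripts. The summed intensity of 18 T and NK cell genes was 8664 to 23947 on trypsinized arrays and 7995 to 21771 on mock sorted arrays, with the highest value of each range in replicate 1, so list counts that differ without replicate 1 of both groups are given both ways.

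The labelled cell type was checked against its markers. The luminal keratin Krt8 had a level of 13.93 ± 0.01 (SD, n = 3) in both groups, and the basal keratin Krt14 one of 12.81 ± 0.01 before and 12.75 ± 0.03 after the sorter. Other cells were present as well: the endothelial cadherin Cdh5 lay at 12.13 ± 0.03 and the proteoglycan of connective tissue Dcn at 13.57 ± 0.04 on the trypsinized arrays, whereas the fat cell hormone Adipoq lay at 7.74 ± 0.04, below the olfactory reference. In such mixed samples, fewer cells of a type and less RNA per cell cannot be told apart.

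Nearly all genes that were called fell, and genes of blood vessels were prominent among them. After the sorter 233 genes (1.17% of those tested) were called lower and 5 (0.0251%) were called higher, 1.19% in all. The groups did not overlap for any of the 233. At an unadjusted p of 0.05, which is used below beside small counts, 11.4% of all genes were lower and 5.78% higher. Of the 233 genes called lower 51 (21.9%) belonged to the lists of endothelial, lymphatic and mural genes, 5 (2.15%) to the stress lists, and 168 (72.1%) to no list. Seen from the lists, 60 of 300 measured genes of all cell lists (20%) and 5 of 218 of the stress lists (2.29%) were called lower, against 1.17% of all genes. The lists were drawn up with earlier results of these data known, so these shares describe the lists and do not test an enrichment. Without replicate 1 of both groups 264 were called lower and 10 higher. The median change of all genes was 0.002 log2, against which each list below is read.

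Genes of endothelial junctions and the endothelial surface fell together. Of 20 measured members 16 were called lower, the median change was -0.99 log2, and the 3 pairs of arrays with the same replicate number gave medians of -0.85, -1.14 and -0.95. Pecam1, an adhesion molecule of endothelial junctions, had levels of 11.76, 11.73 and 11.65 on the trypsinized arrays and of 10.83, 10.51 and 10.57 on the mock sorted arrays. All mock sorted arrays lay below all trypsinized arrays, and the change was -1.08 (SE 0.08, limma adjusted p = 0.000285), a 2.11-fold fall. Cdh5, the cadherin of endothelial junctions, stood at 12.16, 12.11 and 12.12 before the sorter and at 11.30, 10.94 and 11.10 after it. It changed by -1.02 (SE 0.09, limma adjusted p = 0.000378), again with no overlap. Cldn5, the claudin that seals endothelial contacts, had the largest change of the list, from 10.68, 10.69 and 10.70 to 9.49, 9.25 and 9.36. Its groups were more than a log2 unit apart and the change was -1.32 (SE 0.08, limma adjusted p = 0.000118), a 2.5-fold fall.

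The other called members included Esam (-1.15) and Jam2 (-1.15), adhesion molecules of the junction, Robo4 (-1.04), a receptor that steadies vessels, Plvap (-0.88), which forms the diaphragms of endothelial pores, and Vwf (-0.73), the carrier of clotting factor VIII. Of the 4 members that were not called, Eng (-0.45, limma adjusted p = 0.00104) and Icam2 (-0.50, limma adjusted p = 0.0078) passed the adjusted p but not the fold. Ecscr had a change of -0.29 (limma adjusted p = 0.063). S1pr1, the receptor of sphingosine 1-phosphate that lymphocytes use too, had levels of 11.06, 10.69 and 10.55 before and 10.52, 9.58 and 9.49 after the sorter, with replicate 1 highest in both groups. Its change of -0.91 did not pass (limma adjusted p = 0.1), but it did with the replicate number as a block (limma adjusted p = 0.048). For all 20 members the groups did not overlap, where 14.3% of all genes had mock sorted arrays wholly below. The summed intensity of the list was 44176 to 45717 on trypsinized and 21902 to 26579 on mock sorted arrays. Without replicate 1 of both groups 17 members were called and the median was -1.06.

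**Figure D1:**
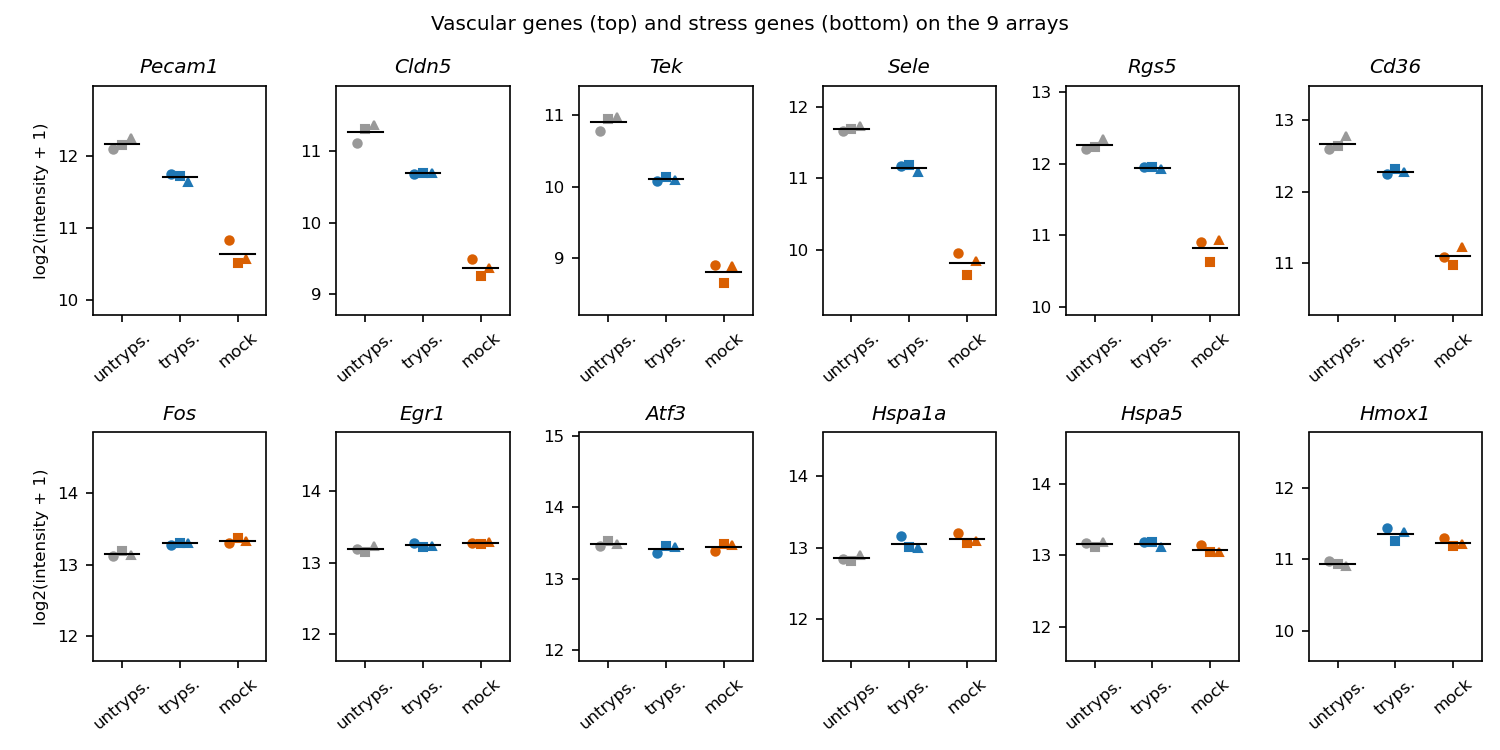
Levels of 6 vascular genes (top row) and 6 stress genes (bottom row) on each array, as log2(intensity + 1); circles, squares and triangles are replicates 1, 2 and 3, bars are group means, and every panel spans the same number of log2 units. For Pecam1, Cldn5, Tek, Sele, Rgs5 and Cd36 the mock sorted arrays lie wholly below the trypsinized ones, while Egr1, Atf3, Hspa1a and Hmox1 overlap between them.

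Transcription factors of the endothelium split. Of 13 measured, 6 were called lower and the median change was -0.45 log2. Erg, an ETS factor that keeps endothelial identity, went from 9.63, 9.64 and 9.75 to 8.74, 8.43 and 8.40, a change of -1.15 (SE 0.09, limma adjusted p = 0.000314) with no overlap. The SOX factors of vessels fell as well, Sox7 by 1.08, Sox17 by 1.03 and Sox18 by 0.61 on the log2 scale. The mock sorted mean of Sox17, 8.04, lay below the olfactory reference. Fli1 (-0.87) and Bcl6b (-0.81) were the remaining called members. The call of Fli1 was lost when any 1 of the trypsinized arrays or mock sorted replicate 2 or 3 was left out, with changes of -0.93 to -0.74, and that of Sox18 without trypsinized replicate 3 or mock sorted replicate 2, with a change of -0.55 each. Leaving out replicate 1 of both groups gave 5 called factors. Tal1 (-0.12), Lyl1 (-0.04), Gata2 (-0.14) and Hhex (-0.09), factors of blood cells as well as of endothelium, did not pass the test, and nor did the flow-induced factor Klf2 (0.04), whose groups overlapped.

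Receptors by which vessels read growth factors and peptides fell, while most of their ligands were not called. Of 15 VEGF and angiopoietin genes 7 were called lower, with a median change of -0.58, and of 9 vascular peptide genes 4, with a median of -0.57. Leaving out replicate 1 of both groups gave 8 and 4 called genes. Of 11 receptors and co-receptors 10 were called lower, with a median change of -0.88 and a range from -1.39 to -0.58. Of 12 ligands 1 was called lower and the median was -0.12. The mock sorted arrays lay wholly below the trypsinized ones for 7 of the 12 ligands and for all 11 receptors, against 14.3% of all genes. The split into receptors and ligands was drawn up after results of these data were known, and the difference between both was not tested. The apelin receptor Aplnr stood at 10.43, 10.48 and 10.39 before the sorter and at 9.15, 8.89 and 9.07 after it. This was the largest fall among the receptors, -1.39 (SE 0.08, limma adjusted p = 0.000118) or 2.63-fold, with groups far apart. Its ligand Apln had overlapping levels and a change of -0.07, with a 95% interval from -0.24 to 0.1.

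Tek, the angiopoietin receptor, had levels of 10.08, 10.14 and 10.10 on the trypsinized arrays and of 8.91, 8.65 and 8.89 on the mock sorted arrays. It fell 2.45-fold (change -1.29, SE 0.08, limma adjusted p = 0.000118), and Tie1, its partner, changed by -1.13. The VEGF receptor Kdr went from 10.16, 10.24 and 10.23 to 9.24, 9.01 and 9.15, a change of -1.08 with no overlap. Flt1 (-1.02), Flt4 (-0.66) and the co-receptor Nrp2 (-0.84) were called too, whereas Nrp1 (-0.58) passed the adjusted p (limma adjusted p = 0.00475) and just missed the fold at 1.49. The call of Flt4, whose mock sorted mean lay below the olfactory reference, was lost without trypsinized replicate 1 or 3 or mock sorted replicate 2 or 3, with changes of -0.65 to -0.54. Calcrl (-0.88) and Ramp2 (-0.84), which together form the adrenomedullin receptor, and the endothelin receptor Ednrb (-0.80) also fell.

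Vegfa, the main ligand of Kdr, was level: 11.50, 11.52 and 11.52 before, 11.48, 11.53 and 11.56 after. Its change of 0.01 had a 95% interval from -0.08 to 0.09. Among the other ligands, Angpt2, which endothelial cells make themselves, was the called one (-0.77, limma adjusted p = 0.00733). Edn1, the endothelin of endothelial cells, changed by -0.57 (limma adjusted p = 0.0164) and missed the fold at 1.48. For 9 of the 12 ligands the 95% interval lay within 1.5-fold in either direction, as it did for 93.7% of all genes. Apela was below the olfactory reference in both groups.

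**Figure D2:**
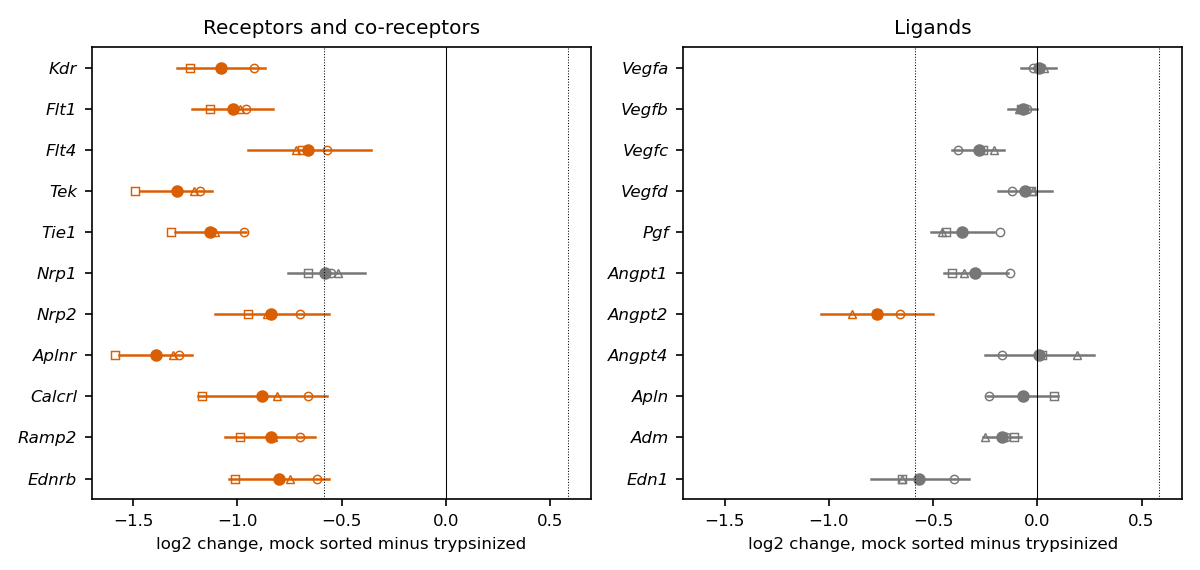
Change of each receptor (left) and ligand (right) on the log2 scale, mock sorted minus trypsinized; filled points are the estimates, lines their 95% intervals, open circles, squares and triangles the differences within replicate numbers 1, 2 and 3, orange marks called genes, and dotted lines mark 1.5-fold. Aplnr, Tek and Kdr lie left of -1, while Vegfa and Apln lie near 0; Apela is left out because it was dim in both groups.

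Venules carry molecules that capture leukocytes, and 3 of 7 of them were called lower, or 4 without replicate 1 of both groups. Sele, the selectin of activated venules, went from 11.17, 11.19 and 11.09 to 9.96, 9.65 and 9.85. That was a 2.51-fold fall (change -1.33, SE 0.07, limma adjusted p = 0.000118), and the groups were apart by more than a log2 unit. Ackr1, a chemokine-binding protein of venules and red cells, changed by -0.95 and Madcam1, which binds gut-homing lymphocytes, by -0.69 to a mean under the olfactory reference. The call of Madcam1 was lost without trypsinized replicate 1 or 3 or mock sorted replicate 2 or 3, with changes of -0.70 to -0.56. Icam1, which epithelial cells express too, changed by -0.34 (limma adjusted p = 0.000492) and did not reach the fold. Glycam1, a product of lymph node venules and of milk-making cells, had levels of 13.39, 12.93 and 13.06 before and 13.44, 12.97 and 13.06 after. Those levels followed the replicate number, and its change of 0.03 had an SE of 0.33.

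The sequence just before the start of transcription is shown for 2 vascular genes that fell and for 1 stress gene that was level, to place the array values beside the regulatory DNA. Each run is the 250 bases upstream of the gene's start in RefSeq, assembly GRCm38.p6, on the gene's own strand. Capitals mark the ETS-type word ACAGGAA, or TTCCTGT, which is the same word on the other strand, and the TATA-type word TATAAA. The Sele run lies at chr1:164047984-164048233 on the plus strand, the Tie1 run at chr4:118489850-118490099 on the minus strand and the Fos run at chr12:85473640-85473889 on the plus strand.
Sele: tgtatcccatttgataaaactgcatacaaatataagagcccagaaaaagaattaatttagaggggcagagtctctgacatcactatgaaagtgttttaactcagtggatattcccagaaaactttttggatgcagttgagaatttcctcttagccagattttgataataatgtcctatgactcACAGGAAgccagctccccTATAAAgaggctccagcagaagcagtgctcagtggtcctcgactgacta
Tie1: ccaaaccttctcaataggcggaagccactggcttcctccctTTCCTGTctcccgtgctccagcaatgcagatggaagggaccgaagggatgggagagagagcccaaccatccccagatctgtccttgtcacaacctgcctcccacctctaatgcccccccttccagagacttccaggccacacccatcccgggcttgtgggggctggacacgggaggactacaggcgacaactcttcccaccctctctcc
Fos: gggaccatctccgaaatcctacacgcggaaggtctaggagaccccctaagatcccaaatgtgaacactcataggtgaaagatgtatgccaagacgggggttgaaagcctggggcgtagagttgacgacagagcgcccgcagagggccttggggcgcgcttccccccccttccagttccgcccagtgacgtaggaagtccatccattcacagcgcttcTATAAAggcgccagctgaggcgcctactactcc
ACAGGAA, searched on both strands, occurred in 7.58% of the 15614 measured genes that have such a run. A run was at hand for 164 of the 233 genes called lower and for 25 of the 43 called lower in the endothelial lists. Among these the word occurred in 15.9% and in 6 (24%). TATAAA occurred in 12.5%, 14.6% and 16% of the same sets, in that order. The shorter core GGAA, which ACAGGAA contains, was in 94% of all runs. The words were chosen after looking at these sequences, and Sele and Tie1 are among the 6, so the shares do not test an enrichment. A match is a description of the letters, not a bound site.

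Most genes of the capillary fatty acid list fell, while all but 1 of the genes of the adipocyte list were not called. This contrast depends on how the genes were assigned: Aqp7 and Fabp4, which fat cells use too, were counted in the capillary list only. Of 9 capillary genes 6 were called lower, with a median change of -1.01 log2, and of 18 adipocyte genes 1, with a median of -0.02. Aqp7, a glycerol channel of capillaries and fat cells, had the largest fall of all genes tested: 10.41, 10.54 and 10.70 before the sorter against 8.87, 8.91 and 9.20 after it. This was a 2.94-fold fall (change -1.55, SE 0.14, limma adjusted p = 0.000436) with no overlap. Cd36, the fatty acid transporter, went from 12.24, 12.32 and 12.27 to 11.09, 10.97 and 11.23, a change of -1.18. Fabp4, a fatty acid carrier of both cell types, changed by -1.10, Gpihbp1, which holds lipoprotein lipase on the capillary wall, by -1.01, and the factor Meox2 by -0.92. Car4, a carbonic anhydrase of the capillary surface, changed by -1.35 to a mean of 7.76, below the olfactory reference. Lpl, the lipase itself, had a change of -0.25 (limma adjusted p = 0.156). Without replicate 1 of both groups 6 capillary genes were called, with a median of -1.04, and 1 adipocyte gene, with a median of -0.01.

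Among the adipocyte genes, Plin1, which coats the fat droplet, stood at 9.35, 9.11 and 9.21 before and 9.23, 9.22 and 9.22 after the sorter. Those values overlapped and the change was 0.00 (SE 0.08). Lipe (0.00) and Pnpla2 (0.02), which cleave stored fat, Dgat2 (0.08), which makes it, and Gpd1 (-0.01) were likewise not called. The glucose transporter Slc2a4 passed the adjusted p with a small change (-0.31, limma adjusted p = 0.00404). Car3, a carbonic anhydrase abundant in fat cells and muscle, was the exception, with levels of 10.66, 10.82 and 10.96 before and 9.27, 9.15 and 9.70 after. It changed by -1.44 (SE 0.14, limma adjusted p = 0.000737), 2.71-fold. For 17 of the 18 adipocyte genes the 95% interval lay within 1.5-fold, as it did for 93.7% of all genes. The list's summed intensity was 29180 to 29601 before and 27839 to 28478 after the sorter. Several of these genes, such as Dgat2 and Scd1, are also made by milk-producing cells, and Adipoq and Lep, which mark fat cells most closely, were below the olfactory reference in both groups.

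**Figure D3:**
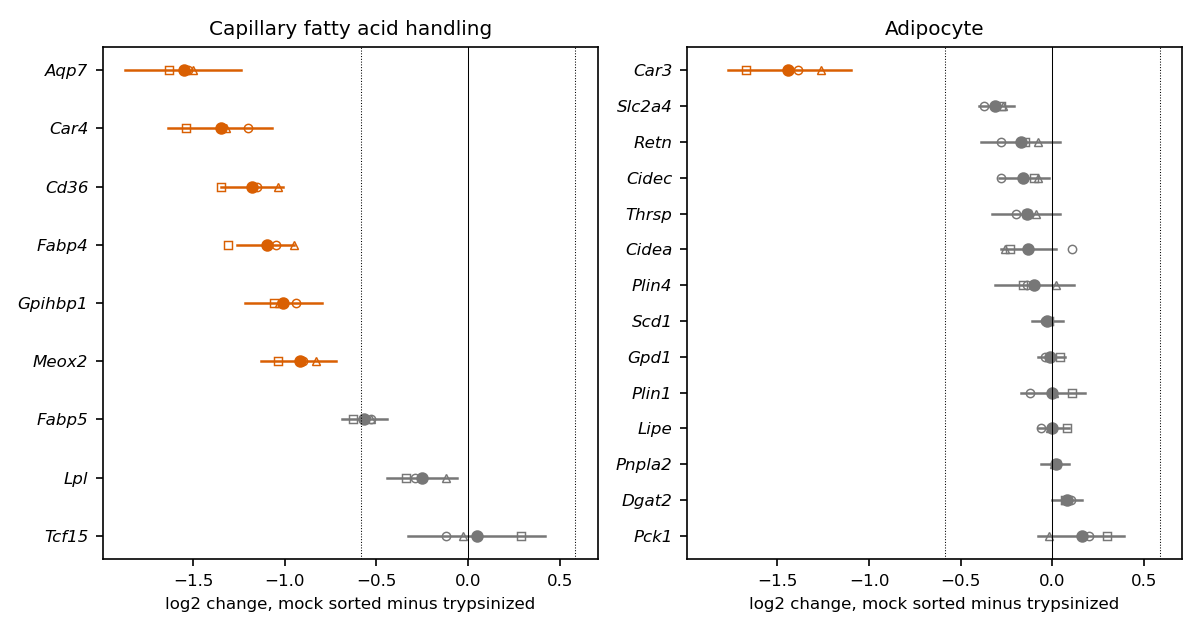
Change of each gene of capillary fatty acid handling (left) and of the adipocyte list (right), mock sorted minus trypsinized on the log2 scale; filled points are estimates, lines 95% intervals, open symbols the 3 replicate pairs, orange marks called genes, and genes dim in both groups are left out. On the left 6 of 9 genes are called, from Aqp7 at -1.55 to Meox2 at -0.92, whereas on the right Car3 alone is.

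Genes of pericytes and other mural cells were lower throughout after the sorter. Of 17 measured genes 8 (47.1%) were called lower, against 1.17% of all genes, and the median change was -0.56. By the adjusted p 12 (70.6%) passed as lower, against 4.2%. All 17 were lower in all 3 pairs, as were 24.5% of all genes. All 17 were lower at an unadjusted p of 0.05 too, against 11.4%. Rgs5, a regulator of G proteins that marks pericytes, had levels of 11.95, 11.95 and 11.93 on the trypsinized and of 10.90, 10.63 and 10.93 on the mock sorted arrays. It fell 2.18-fold (change -1.12, SE 0.08, limma adjusted p = 0.000191). Kcnj8 (-1.02) and Abcc9 (-0.88), the subunits of the pericyte potassium channel, fell alike, as did Gucy1a1 (-0.92) and Gucy1b1 (-0.93), which together form the receptor of nitric oxide. The filament protein Des (-0.98), the matrix protein Vtn (-1.06) and Rgs4 (-0.90) completed the called members. Pdgfrb, which fibroblasts also express, changed by -0.56 (limma adjusted p = 0.00345) and stayed just under the fold at 1.47. Cspg4 (-0.17) and Notch3 (-0.20) did not pass. Without replicate 1 of both groups 9 members were called and the median was -0.59.

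All 7 measured lymphatic genes were lower in all 3 pairs, where 24.5% of all genes were, and few passed the test. Mmrn1 (-1.25, limma adjusted p = 0.00338) and Flt4 (-0.66, limma adjusted p = 0.024) were called, both with mock sorted means under the olfactory reference, and the median was -0.20. At an unadjusted p of 0.05 4 of the 7 were lower, as were 11.4% of all genes. Leaving out single arrays ended the call of Flt4 as given above, and without replicate 1 of both groups 3 genes were called. Lyve1, a hyaluronan receptor of lymphatics and some macrophages, stood at 10.76, 10.01 and 9.95 before and 10.32, 9.21 and 9.33 after the sorter. Replicate 1 was highest in both groups, the change of -0.62 did not pass (limma adjusted p = 0.357), and with the replicate block it did (limma adjusted p = 0.037). The master factor of lymphatics, Prox1, had a change of -0.20.

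Schwann cells, which wrap peripheral nerves, had 4 of 13 genes called lower, or 3 without replicate 1 of both groups, and a median of -0.27. Mbp, a myelin protein, had levels of 11.05, 10.97 and 11.10 before and 10.21, 10.35 and 10.37 after the sorter. It fell 1.66-fold (change -0.73, SE 0.06, limma adjusted p = 0.000314). Egfl8 changed by -0.61, a call lost without mock sorted replicate 1 (-0.55), and Cdh19 and Gjc3 were called but dim in both groups. Pmp22 changed by -0.46 (limma adjusted p = 0.000642), while Sox10, which mammary epithelial cells express as well, had a change of -0.06. The 17 skeletal muscle genes had a median of -0.08, with 12 negative and 5 positive changes, and 15 of them stayed within 1.5-fold. The contractile protein Myl1 (-1.06) and the creatine kinase Ckm (-0.99) were called. Both had mock sorted means under the olfactory reference. The call of Ckm was lost without any 1 of the arrays other than trypsinized replicate 2, with changes of -1.04 to -0.85, and without replicate 1 of both groups 1 muscle gene was called.

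Fibroblast and macrophage genes were lower by small amounts. None of 21 fibroblast and matrix genes was called in the limma fit and 1 passed the adjusted p, but 8 (38.1%) were lower at an unadjusted p of 0.05, against 11.4% of all genes, and the median was -0.14. For 20 of the 21 the 95% interval lay within 1.5-fold, as it did for 93.7% of all genes. Fbln2, a fibulin of matrix and vessel wall, was the one that passed, with levels of 11.18, 11.18 and 11.21 against 10.66, 10.65 and 10.69. Its change of -0.52 (SE 0.03, limma adjusted p = 0.000159) was below the fold. Dcn (0.03), Col1a1 (-0.12) and Postn (-0.12), all matrix products of fibroblasts, did not pass. Of 21 macrophage and dendritic cell genes Cd209f was called (-0.72, limma adjusted p = 0.00207), 8 (38.1%) were lower at an unadjusted p of 0.05, and the median was -0.18. Adgre1, the F4/80 antigen, changed by -0.38 (limma adjusted p = 0.00903), and Lyz2, a lysozyme, had a change of -0.27 with an SE of 0.27. No gene of 8 mast cell, 7 red cell and platelet or 6 MHC class II genes was called in the limma fit. At an unadjusted p of 0.05 1 mast cell gene was lower and 3 were higher. By the same rule 3 red cell and platelet genes were lower, 1 of which passed the adjusted p, and no MHC class II gene was either. Among all genes 11.4% were lower and 5.78% higher. The medians of the mast cell, red cell and platelet, and MHC class II lists were 0.18, 0.09 and -0.09.

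Lymphocyte genes could be read only within replicate numbers. Of 14 B cell genes 1 was called, with a median of -0.33 and pair medians of -0.30, -0.32 and -0.32. The called one, Ebf1 (-0.78), is a factor that mural and stromal cells use too. With the replicate block 7 of the 14 passed an adjusted p of 0.05, all lower, where 3.53% of all genes were lower and 0.236% higher by that rule. Ms4a1, the CD20 antigen, stood at 10.32, 8.53 and 8.75 before and 9.90, 8.05 and 8.35 after the sorter. Its groups overlapped and replicate 1 was far above the others in both, but each mock sorted array lay below its trypsinized partner. The change was -0.43, with limma adjusted p = 0.782 without and 0.016 with the block. Cd79a and Bank1, further parts of B cell receptor signalling, both had a change of -0.35, with limma adjusted p = 0.787 and 0.784 without the block and 0.022 and 0.023 with it.

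Of 18 T and NK cell genes none was called in the limma fit, with or without the block, and 1, Nkg7, passed an adjusted p of 0.05 with the block (limma adjusted p = 0.043). No member reached an unadjusted p of 0.05 without the block. The T cell receptor chain Cd3e had levels of 11.45, 10.22 and 9.93 before and 11.42, 10.23 and 9.99 after, a change of 0.02. Cd8b1 had a change of -0.19 and Cd4 one of -0.15, with limma adjusted p = 0.099 and 0.13 with the block. Without replicate 1 of both groups 1 B cell and 0 T and NK cell genes were called. Without the block only 3 of the 18 had a 95% interval within 1.5-fold. Whether B and T cell genes differ from each other was not tested.

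**Figure D4:**
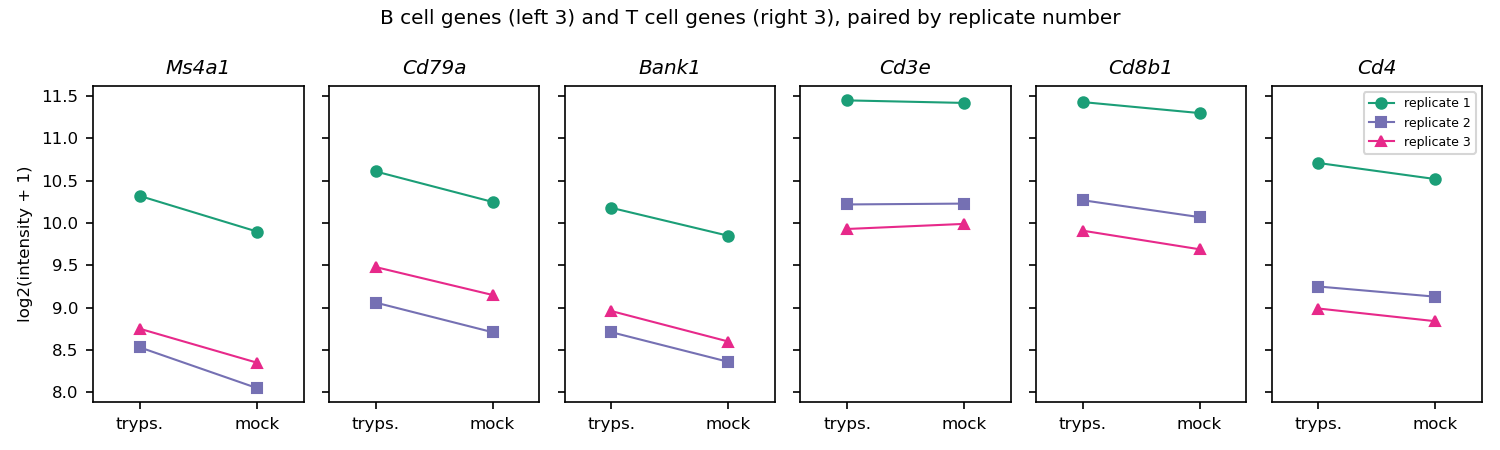
Levels of 3 B cell genes (Ms4a1, Cd79a, Bank1) and 3 T cell genes (Cd3e, Cd8b1, Cd4) as log2(intensity + 1); lines join the trypsinized and the mock sorted array of the same replicate number. Replicate 1 is highest in every panel, all B cell lines slope down, and the Cd3e lines are close to flat.

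Epithelial genes had small changes, and no member of any epithelial list was called in the limma fit, where 1.19% of all genes were. At an unadjusted p of 0.05 3 luminal and 5 hormone-sensing genes were higher, where 5.78% of all genes were. By the same rule 1 alveolar and 12 (63.2%) basal genes were lower, where 11.4% of all genes were. For all 18 luminal, 10 hormone-sensing, 14 alveolar and 19 basal genes the 95% interval lay within 1.5-fold, as it did for 93.7% of all genes. Medians were 0.05, 0.11, -0.05 and -0.13 log2 in that order, and 0.05, 0.12, -0.07 and -0.11 without replicate 1 of both groups. Of the luminal genes 14 were higher in all 3 pairs, as were 19.5% of all genes, and the summed intensity of the list was 124798 to 126256 before and 129838 to 130889 after the sorter. The adhesion molecule Epcam had a change of 0.10 (limma adjusted p = 0.225).

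Hormone-sensing genes leaned upward by small amounts. For 8 of the 10 the mock sorted arrays lay wholly above the trypsinized ones, against 9.74% of all genes. The progesterone receptor Pgr stood at 11.94, 11.94 and 11.90 before and at 12.12, 12.15 and 12.10 after the sorter. The groups did not overlap, but the change of 0.19 did not pass (limma adjusted p = 0.0532), and nor did that of the oestrogen receptor Esr1 (0.12, limma adjusted p = 0.0627), which went from 11.65, 11.67 and 11.69 to 11.79, 11.80 and 11.79.

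Basal genes leaned downward, with 17 of 19 lower in all 3 pairs, as were 24.5% of all genes. By the adjusted p 4 (21.1%) passed, all lower, where 4.2% of all genes passed as lower. Mylk, the myosin light chain kinase, went from 10.96, 11.07 and 10.99 to 10.57, 10.65 and 10.59, a change of -0.41 (limma adjusted p = 0.00165). The oxytocin receptor Oxtr changed by -0.28 (limma adjusted p = 0.00475), Tagln by -0.18 and Myh11 by -0.17, and none of the 4 reached the fold. Acta2, the smooth muscle actin of basal cells, had a change of -0.04 (limma adjusted p = 0.563). Mylk, Tagln and Myh11 are also genes of vascular smooth muscle, and the mural genes above fell over the same arrays, but their part in these changes was not tested. The basal keratins Krt5 (-0.06) and Krt14 (-0.07) and the basal factor Trp63 (-0.08) did not pass.

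No stress gene was called higher, where hardly any gene was, and the changes were small and more often downward. Of 218 measured genes in 13 stress lists 5 (2.29%) were called lower in the limma fit, against 1.17% of all genes. None was called higher, against 0.0251% of all genes, so the absence of calls is near that share. The median change was -0.04 log2. By the adjusted p alone 22 (10.1%) passed as lower, against 4.2% of all genes, and 1 as higher, against 0.466%. At an unadjusted p of 0.05 52 (23.9%) were lower, against 11.4%, and 7 (3.21%) were higher, against 5.78%. In all 3 pairs 100 (45.9%) were lower, against 24.5%. For 206 of them (94.5%) the 95% interval lay within 1.5-fold, close to the 93.7% of all genes, and so did that of every measured gene of 10 lists: AP-1 factors, early response genes, heat shock chaperones, the unfolded protein response, oxidative stress, p53 targets, hypoxia, YAP targets, ERK feedback and apoptosis. The one that passed as higher was Dusp4, a phosphatase that ends ERK signalling, with a change of 0.14 (limma adjusted p = 0.0319).

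Immediate early genes were among the brightest on the arrays before and after the sorter. Fos, the first-induced AP-1 subunit, had levels of 13.28, 13.31 and 13.31 on trypsinized and 13.31, 13.37 and 13.33 on mock sorted arrays. The mock sorted arrays lay at or just above the trypsinized ones and the change was 0.04, with a 95% interval from -0.04 to 0.11. Egr1 went from 13.28, 13.22 and 13.24 to 13.28, 13.26 and 13.29, a change of 0.03 with overlapping groups. Atf3 (0.02), Jun (0.02), Fosb (-0.02) and the phosphatase Dusp1 (0.00) were as close to 0. Of the 9 AP-1 genes 1 (11.1%) and of the 19 early response genes 1 (5.26%) passed the adjusted p as lower, against 4.2% of all genes. They were Fosl2 (-0.17, limma adjusted p = 0.0308) and the nuclear receptor Nr4a2 (-0.23, limma adjusted p = 0.0152), both with small changes.

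Chaperones behaved likewise. Hspa1a, the inducible HSP70, had a level of 13.06 ± 0.09 (SD, n = 3) before and 13.12 ± 0.07 after the sorter. The groups overlapped and the change was 0.06, with a 95% interval from -0.07 to 0.19. Its near-identical copy Hspa1b has no row of its own, so the value may include it. Hspa8 (-0.02), the constitutive HSP70, and Hsp90aa1 (-0.03) were not called, and Cryab, a small chaperone of muscle-like cells, changed by -0.26 (limma adjusted p = 0.011). Hspa5, the chaperone of the endoplasmic reticulum, went from 13.19, 13.18 and 13.11 to 13.14, 13.04 and 13.04, a change of -0.08. The stress factors Atf4 (-0.02) and Ddit3 (-0.06) did not pass.

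By the adjusted p 1 of 17 oxidative genes and 1 of 17 p53 and damage genes passed as lower (5.88% each), near the 4.2% of all genes. At an unadjusted p of 0.05 5 oxidative genes (29.4%) were lower and 1 was higher. By the same rule 2 p53 and damage genes (11.8%) were lower and 2 higher, where 11.4% of all genes were lower and 5.78% higher. Nqo1, a quinone reductase, changed by -0.33 (limma adjusted p = 0.00882) and Gadd45b, a damage and cytokine target, by -0.29 (limma adjusted p = 0.0313), both under the fold. Hmox1, the heme oxygenase, had levels of 11.44, 11.25 and 11.38 before and 11.29, 11.19 and 11.21 after, a change of -0.13 with overlapping groups. The p53 targets Mdm2 (-0.04) and Bbc3 (0.12) did not pass.

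Targets of YAP, a factor that responds to mechanical force, were lower by small amounts. Of 13 measured none was called in the limma fit, where 1.19% of all genes were, and the median was -0.12. In all 3 pairs 10 (76.9%) were lower, against 24.5% of all genes. At an unadjusted p of 0.05 6 (46.2%) were lower, against 11.4%. By the adjusted p 3 (23.1%) passed as lower, against 4.2%. Those that passed were Lats2, a kinase that restrains YAP (-0.35, limma adjusted p = 0.0165), Fjx1 (-0.31, limma adjusted p = 0.00871) and Crim1 (-0.21, limma adjusted p = 0.0374). Ccn1, a matrix protein and bright YAP target, had levels of 13.33, 13.32 and 13.29 before and 13.29, 13.31 and 13.23 after the sorter. Its groups overlapped and the change was -0.04.

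The 5 called stress genes were cytokine, chemokine and interferon-induced genes, at 1 of 20 NF-kB targets, 2 of 18 chemokines and 2 of 17 interferon-induced genes, the same counts as without replicate 1 of both groups. Il6, a cytokine made by stromal and endothelial cells among others, stood at 11.92, 11.96 and 11.83 before and 11.18, 10.97 and 11.07 after the sorter. It fell 1.78-fold (change -0.83, SE 0.06, limma adjusted p = 0.000253) with no overlap. The chemokine Cxcl9 went from 11.41, 11.34 and 11.40 to 10.55, 10.07 and 10.35, a 2.09-fold fall (change -1.07, SE 0.11, limma adjusted p = 0.000737). Cxcl10 changed by -0.62 (limma adjusted p = 0.018), a call lost with the replicate block (limma adjusted p = 0.067) and without any 1 of the trypsinized arrays or mock sorted replicate 2 (-0.63 to -0.47). Its call was also lost in a fit to the 6 arrays alone (limma adjusted p = 0.0538). The interferon-induced genes Ifit1 and Ifit3 changed by -0.66 and -0.69, and without mock sorted replicate 2 Ifit1 was not called (-0.57) and the count of called stress genes was 3. The endothelial markers fell over the same arrays, 16 of 20 of them, and their part in these changes was not tested. Tnf stood at 11.05, 11.03 and 11.07 before and 11.12, 11.07 and 10.95 after, a change of 0.00, and Nfkbia (-0.10), Ptgs2 (-0.15) and Ccl2 (-0.20) did not pass. Csf3 changed by -0.55 (limma adjusted p = 0.000708), just under the fold at 1.46.

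**Figure D5:**
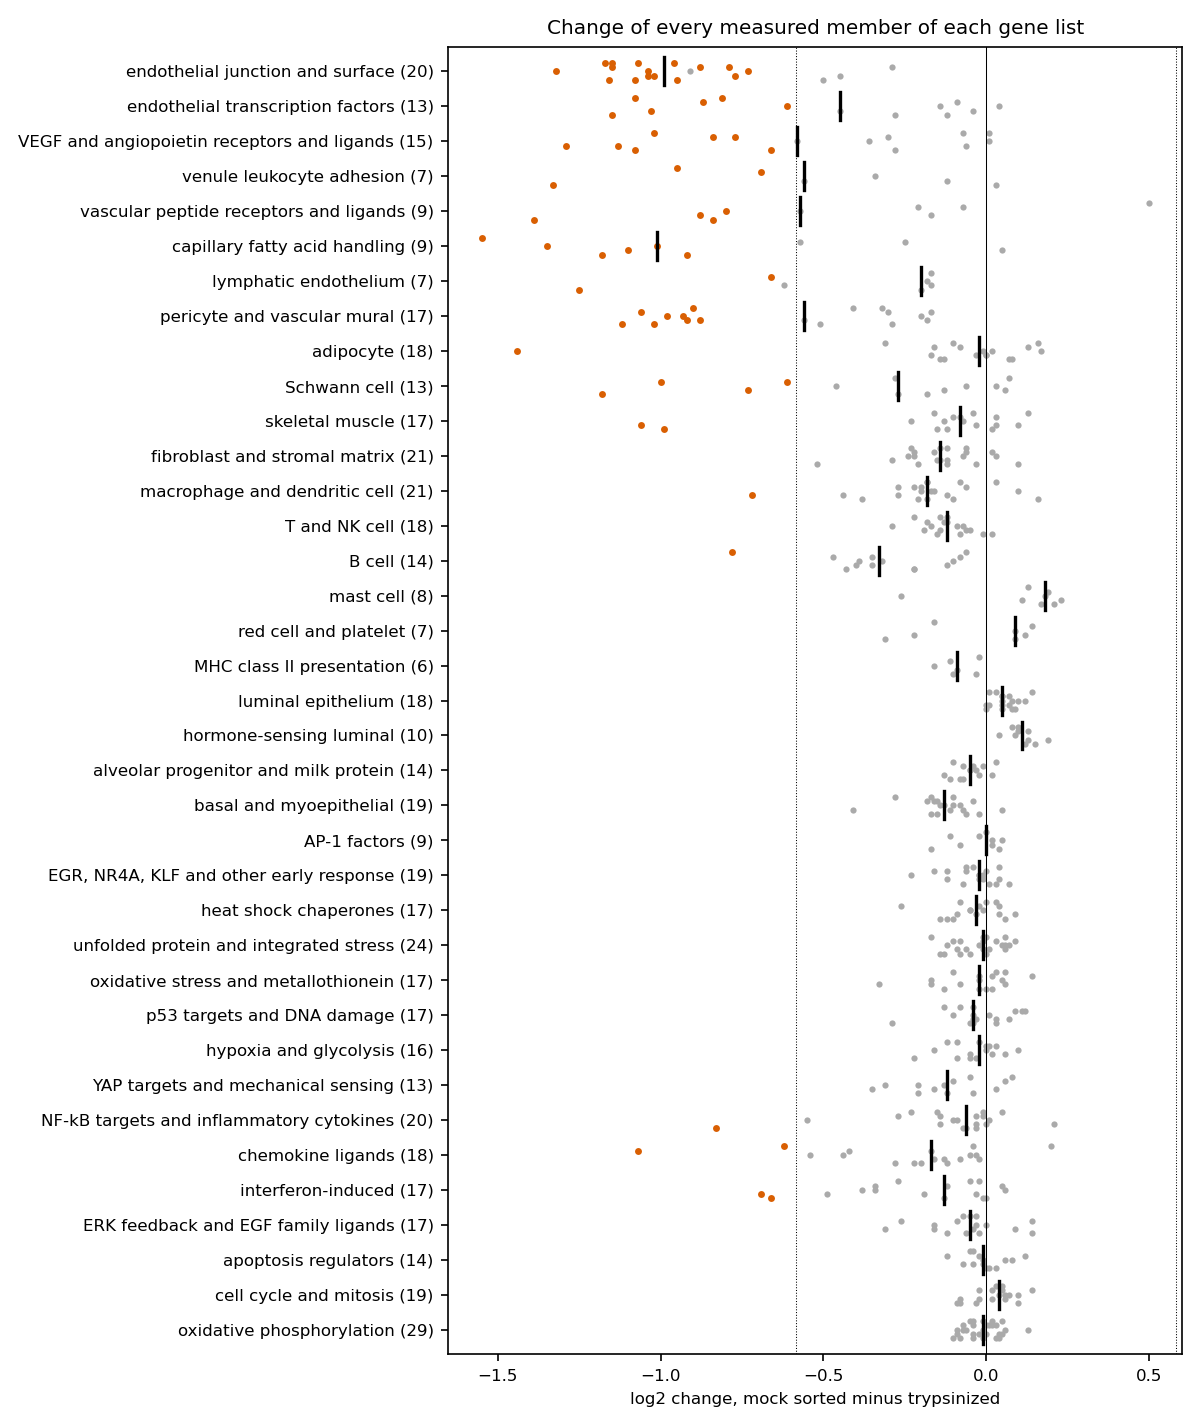
Change of every measured gene of each list, mock sorted minus trypsinized on the log2 scale, with the number measured in brackets; orange points are called genes, black bars list medians and dotted lines 1.5-fold, and genes dim in both groups are included. The vascular lists at the top spread to -1.55, while AP-1, heat shock, cell cycle and oxidative phosphorylation genes lie near 0.

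Brightness differed between the stress genes and the genes that fell. Among the 195 genes at 13 log2 or more on the trypsinized arrays, 24 were stress genes and none was called in the limma fit, with 12 lower and 4 higher at an unadjusted p of 0.05, and among the 1004 from 12 to 13 log2 8 (0.797%) were called lower. The highest value on any array was 14.31 log2. The brightest called gene, the water channel Aqp1, fell from 12.57 to 11.43. From 11 to 12 log2 3 of 62 stress genes were called lower, beside 28 of 2530 genes (1.11%). Whether the brightest probes respond less to a change was not tested.

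Housekeeping programs gave no call. None of 19 cell cycle genes and none of 29 oxidative phosphorylation genes was called in the limma fit, where 1.19% of all genes were. None had an unadjusted p under 0.05, where 11.4% of all genes were lower and 5.78% higher by that rule. All 48 had 95% intervals within 1.5-fold, as had 93.7% of all genes. Mki67, present in dividing cells, had a change of 0.10 and Cox4i1, a subunit of cytochrome oxidase, one of -0.02.

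Among the largest falls were genes outside the lists. Igf2, an insulin-like growth factor of stroma and vessels, had levels of 10.64, 10.61 and 10.64 before and 9.21, 9.26 and 9.32 after the sorter. The groups were tight and far apart, with a change of -1.37 (SE 0.05, limma adjusted p = 3.14e-05). Rbp7, a retinol-binding protein of capillaries, changed by -1.36 (limma adjusted p = 4.04e-05), Fhl5 by -1.38 (limma adjusted p = 5.62e-05), the leukotriene receptor Cysltr1 by -1.39 to a mean of 7.89 under the olfactory reference, and Myct1, an endothelial membrane protein, by -1.35.

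Of the 5 genes called higher, 2 were vomeronasal receptors, Vmn1r38 and Vmn1r16, dim in both groups. Phxr4 went from a mean of 8.07, under the olfactory reference, to 8.72. The small nucleolar RNA Snora74a, outside the naming rule and named here because the count is 5, had levels of 9.62, 9.52 and 9.66 before and 10.28, 10.51 and 10.51 after, a change of 0.84 (limma adjusted p = 0.000319). The microRNA gene Mir325 was the remaining one (0.72), with a trypsinized mean of 7.52 under the olfactory reference, and its call was lost with the replicate block (limma adjusted p = 0.11).

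The preceding step, trypsin, was set beside the sorter for the same genes. Both differences use the trypsinized arrays, with opposite sign, so their values are given side by side and not correlated. From untrypsinized to trypsinized arrays 186 genes (0.933%) were called lower and 106 (0.532%) higher. Of the 20 endothelial junction and surface genes 3 were called lower at the trypsin step, with a median of -0.43 against -0.99 at the sorter. The 11 vascular receptors and co-receptors had a median of -0.58 at the trypsin step, against -0.88 at the sorter, and the 12 ligands -0.14 against -0.12. The Schwann cell list had 5 called and a median of -0.44 at the trypsin step, against 4 and -0.27 at the sorter, and Mbp changed by -0.88 and then by -0.73. T and NK cell genes had a median of 1.14 at the trypsin step, where 2 of 18 were called higher. Their summed intensity was 5654 to 6377 on untrypsinized and 8664 to 23947 on trypsinized arrays, of which replicate 1 was highest.

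The difference between both steps was tested for each gene and was called for 14 (0.0702%). For 12 of them (0.0602%) the change at the sorter was below that at the trypsin step, and 4 of these were also called lower at the sorter. The count of 14 rested on single arrays: it was 0 without any 1 of the trypsinized arrays, 22, 1 and 6 without mock sorted replicate 1, 2 and 3, and 0 without replicate 1 of both groups. Aqp1 changed by -0.41 at the trypsin step and by -1.14 at the sorter, and its difference was called (limma adjusted p = 0.024), as were those of Igf2, Rbp7 and Tmem252. No endothelial junction or surface gene had a called difference in limma, with adjusted p = 0.13 for Pecam1 and 0.087 for Cldn5. For 12 of the 20 the difference was negative at an unadjusted p of 0.05, as it was for 10.7% of all genes. Of the stress genes, Tnf had a change of 0.73 at the trypsin step and of 0.00 at the sorter (limma adjusted p = 0.029 for the difference), Lif one of 0.61 and then -0.07 (limma adjusted p = 0.029), and Osgin1 one of 0.66 and then -0.02 (limma adjusted p = 0.015). Csf3 had changes of 0.37 and then -0.55 (limma adjusted p = 0.024).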

How the data were processed

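The deposited values were intensities on a linear scale, 1 per probe set row and array of 9 Affymetrix whole-transcript arrays, as processed by the authors. The normalization is not given in the sources used here, though limma appears in the submitters' processing notes. The table holds 35512 rows. A single symbol stood beside 21789 rows and several beside 1621, while 12102 are unnamed here. Through RefSeq 21698 symbols were updated. The row with the highest mean stood for each of 19938 genes, 999 of which had several rows. Of the list genes 39 were not measured by such a row.

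log2 levels were computed from the deposited intensities with a pseudocount of 1. limma 3.58.1 (R 4.3.3) was fitted to all 9 arrays with group means, eBayes and Benjamini-Hochberg adjustment, and the scripts were tested on simulated data. Members and lists were chosen with earlier results of these data known. The naming rule gives the 12 largest falls and rises among called genes with separate groups, without predicted and small RNA genes. It adds the leading and lowest-p genes of each list and the brightest of each stress list. The text also names genes outside this rule, such as Vwf, Klf2 and Lif, which the sensitivity counts of named genes do not cover.

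Replicate numbers pair the arrays: deviations from the group mean of same-numbered trypsinized and mock sorted arrays correlated at 0.529, 0.285 and 0.292, and those of other numbers at -0.359 to 0.161. This pairing comes from the values, since the labels give only the numbers. The alternatives were other thresholds, pseudocounts, scalings, filters, row rules, variance models, replicate blocks and arrays left out; leaving out replicate 1 of both groups was added after seeing the data.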

Additional observations from a re-analysis of the deposited data

How the results depend on the processing

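Against 233 genes called lower at the sorter, 838 were called with no minimum fold and 69 at a 2-fold minimum, and leaving out 1 array gave 208 to 273. A fit to the 6 arrays alone called 220 lower. With the replicate number as a block 245 were called on the 6 arrays, 231 of them the same genes, and 234 on the 9 arrays, and among the genes that the naming rule gives, the pairing changed the calls of Cxcl10 and Lyve1 only. The 5 genes called higher became 1 with dim genes left out, 9 with array weights, 10 without replicate 1 of both groups, 13 at an unadjusted p, 93 with no minimum fold, 0 at 2-fold and 4 to 8 without 1 array. The 16 endothelial genes became 10 at 2-fold and 16 to 17 without 1 array. The 5 stress genes became 23 with no minimum fold, 1 at 2-fold and 3 to 5 without 1 array. The 14 step differences became 4 with arrays set to a common median, 60 with dim genes left out, 100 with a variance trend, 42 with array weights, 247 at an unadjusted p, 25 with no minimum fold, 1 at 2-fold, 0 with the 9-array replicate block, 0 without replicate 1 of both groups and 0 to 22 without 1 array. The causes were not tested, apart from the thresholds, which by construction admit more or fewer genes. Over the scalings the median of all genes ran from -0.013 to 0.02 log2. Among the genes of the naming rule no direction of a called gene reversed over all 18 settings. For these genes 39 values lost their call, mostly with an array left out, while 20 gained one. B cell and T cell list medians swung with single arrays, from -0.72 to 0.11 and from -0.51 to 0.29 log2. With 3 arrays a group, small changes of dim genes were not detectable.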

Other observations

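Genes of vascular tone that belong to none of the lists were also among those called lower, and they are named after their values were seen. Npr1, the receptor of natriuretic peptide that makes cyclic GMP, stood at 9.79, 9.83 and 9.81 on the trypsinized and at 8.92, 8.77 and 8.80 on the mock sorted arrays. Its groups were apart, and it changed by -0.98 (SE 0.08, limma adjusted p = 0.0003) at the sorter and by -0.60 at the trypsin step. Pde2a, which cleaves the cyclic nucleotides that Npr1 and the adenylyl cyclase Adcy4 make, changed by -0.95 and Adcy4 by -0.98. The endothelial nitric oxide synthase Nos3 went from 9.65, 9.77 and 9.75 to 8.97, 9.07 and 9.00, a 1.63-fold fall (change -0.71, SE 0.08, limma adjusted p = 0.00123).

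Surface molecules that keep blood fluid or let water through fell likewise. Procr, the receptor of protein C, had levels of 11.08, 10.97 and 10.86 before and 10.18, 9.72 and 9.75 after the sorter, with no overlap. It fell 2.12-fold and Thbd, thrombomodulin, 1.83-fold. The water channel Aqp1 went from 12.57, 12.60 and 12.55 to 11.49, 11.38 and 11.43, a change of -1.14 with an SE of 0.04 (limma adjusted p = 3.14e-05). Ptprb, the phosphatase that restrains Tek, fell 2.31-fold (limma adjusted p = 0.000118), and Rgs16, a regulator of G proteins, had levels of 11.51, 11.52 and 11.47 before and 10.44, 10.17 and 10.33 after. These genes were picked for their change, so their number says nothing about the groups they belong to.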
